A study of Homo sapiens with 24 samples.

Results

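Formins are the proteins that start and lengthen unbranched actin filaments, and 10 of their genes were followed here: DIAPH1, DIAPH2, DIAPH3, FHOD1, FHOD3, FMNL1, FMNL2, FMNL3, DAAM1 and INF2. They were taken as a named list out of 34834 genes with transcripts in the deposited tables. No rule on measured values chose them, but earlier results of these data were known. All 10 had transcripts there, and all 10 were among the 17454 genes with enough reads to be tested. The cells were SK-MES1, an established human line derived from squamous lung carcinoma. After 3 hours without growth factors the cells received 2 ng/ml TGFβ1 or no ligand (the TGFβ and untreated arms), and RNA was taken at 0, 8, 24 and 48 h from 3 biological replicates per arm and time point, giving 24 RNA-Seq libraries in 8 groups. The samples labelled 0 h in the TGFβ arm had no exposure time, so the arms at 0 h serve as the background.

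A formin holds the growing end of an actin filament with its FH2 domain, while the neighbouring FH1 domain feeds in actin bound to profilin. Several formins are kept folded and inactive until a signal opens them, and filaments made in this way build filopodia, stress fibres and the contractile ring of dividing cells. The gene levels described below are sums over all annotated transcripts of a gene, including some without a defined coding sequence. They are therefore not a measure of coding template alone, and they carry no information on whether the protein was open and active.

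Everything here comes from 1 cell line, so the replicates are separate cultures of the same cells. In such bulk libraries a smaller share of cells expressing a gene and less of its RNA per cell cannot be told apart. Depth lay between 46613589 and 77964234 estimated counts, and the median library had 54120879. The keratin genes KRT8, KRT18 and KRT19 of simple epithelium were abundant, whereas 4 of the 7 squamous markers (KRT5, KRT6A, KRT14 and DSG3) did not reach the 10 counts in 3 libraries that testing required. The squamous factor TP63 was present, with group means from 8.74 to 36.8 TPM. At 48 h KRT17 was at 5.41 TPM untreated and 70.5 TPM with TGFβ, and SOX2 at 5.23 and 0.432 TPM. The summed level of 6 blood cell markers stayed between 5.71 and 11.9 TPM. The deposited libraries carry 4 codes, with 1 code per arm for 0 and 8 h and another per arm for 24 and 48 h. Arm and code therefore cannot be told apart at any single time point. The changes from 0 to 8 h and from 24 to 48 h compare libraries of the same code within each arm.

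The results turn on 2 pairs of close relatives, FHOD3 with FHOD1 and FMNL3 with FMNL2. The 250 bases before the annotated start of these 4 genes are shown because the arm differences described below had opposite signs within each pair, at 8, 24 and 48 h for FMNL3 and FMNL2 and at 24 and 48 h for FHOD3 and FHOD1, whose own difference was -0.02 at 8 h and called at 48 h only. The sequences are from RefSeq (GRCh38.p14), read 5′ to 3′ on the strand of the gene. Capitals mark matches on either strand to GGGCGG (the GC box, bound by Sp1-type factors) and to TTTCCCG or TTTGGCG (E2F sites, a motif of cell cycle genes), which overlap or touch in places. The windows are chr18:36297463-36297712 on the plus strand for FHOD3, chr16:67247482-67247731 on the minus strand for FHOD1, chr12:49707406-49707655 on the minus strand for FMNL3 and chr2:152334924-152335173 on the plus strand for FMNL2.
FHOD3: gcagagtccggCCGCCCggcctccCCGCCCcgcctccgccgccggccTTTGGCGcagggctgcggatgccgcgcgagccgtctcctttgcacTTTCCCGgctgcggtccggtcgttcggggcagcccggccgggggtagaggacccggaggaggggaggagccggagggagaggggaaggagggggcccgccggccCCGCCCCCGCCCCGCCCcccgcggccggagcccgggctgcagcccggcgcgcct
FHOD1: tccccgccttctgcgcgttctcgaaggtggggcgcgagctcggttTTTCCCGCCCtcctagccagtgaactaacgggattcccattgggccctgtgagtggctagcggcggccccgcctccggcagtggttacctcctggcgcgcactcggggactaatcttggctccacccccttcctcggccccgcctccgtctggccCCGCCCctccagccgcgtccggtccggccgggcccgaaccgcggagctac
FMNL3: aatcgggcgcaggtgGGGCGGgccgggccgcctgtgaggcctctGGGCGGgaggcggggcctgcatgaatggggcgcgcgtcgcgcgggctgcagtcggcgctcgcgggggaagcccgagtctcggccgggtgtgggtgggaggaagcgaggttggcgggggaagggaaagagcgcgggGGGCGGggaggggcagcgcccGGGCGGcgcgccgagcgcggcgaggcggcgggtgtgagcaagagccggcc
FMNL2: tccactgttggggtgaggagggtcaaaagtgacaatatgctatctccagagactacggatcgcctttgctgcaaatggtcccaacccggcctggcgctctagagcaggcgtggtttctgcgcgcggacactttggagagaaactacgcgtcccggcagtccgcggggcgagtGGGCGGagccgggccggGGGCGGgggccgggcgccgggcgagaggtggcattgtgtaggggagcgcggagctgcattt

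All 4 windows were rich in G and C, with 81.6% in FHOD3, 70.8% in FHOD1, 79.2% in FMNL3 and 65.2% in FMNL2, against a median of 58.0% over 35116 RefSeq windows of this length. The promoter table matched all 10 formin genes. A GC box occurred in the first listed window of each of the 10, compared with 42.6% of all windows. An E2F site was found in 2 of the 10, with 2 matches in FHOD3 and 1 in FHOD1, and in 5.1% of all windows. None of the 10 first windows held CAGACA (a SMAD element, in 13.6% of windows), TGANTCA (AP-1, in 6.6%), GGAATG (TEAD, in 11.9%) or a CArG box (the SRF element, in 1.2%). For 3 members further starts are listed, which these counts leave out but the percentages of all windows include. Among them, window 2 of INF2 held an AP-1 match, and window 2 of DIAPH3 and window 3 of INF2 held a TEAD match. These letters describe the windows only.

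FHOD3 and FMNL3 were higher and FMNL2 was lower in TGFβ-stimulated than in untreated cells at each of 8, 24 and 48 h. Smaller differences were found for DAAM1 and DIAPH3 (higher) and FHOD1 (lower), and 4 formin genes did not pass the test. The overall test was limma's moderated F-test of the arm differences at 8, 24 and 48 h, with voom weights and Benjamini-Hochberg adjustment over all 17454 genes at a threshold of 0.01. It called 6 of the 10 formin genes, beside 42.5% of all genes tested. That background is high, so the single members are described one by one. FHOD3, FMNL3 and FMNL2 passed this test in each of 12 other processing settings and in each of 24 fits that left out 1 library.

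**Figure D1:**
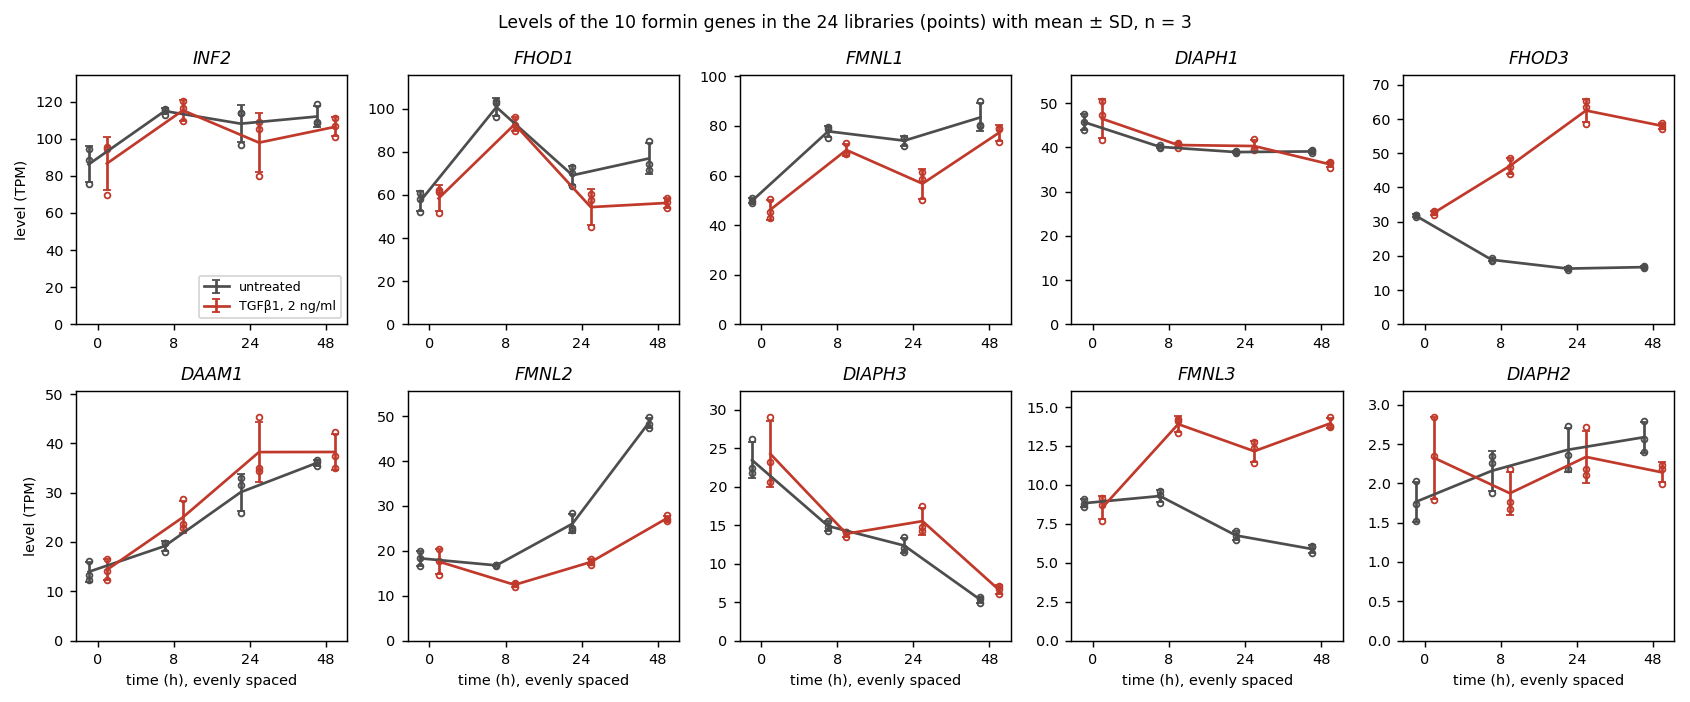
Level in TPM (vertical axis, from 0, a separate scale per gene) against time in hours (evenly spaced) for the 10 formin genes, ordered by mean level; circles are single libraries, lines join group means and bars give the SD of 3 libraries, grey for untreated and red for TGFβ1. The arms of FHOD3 and FMNL3 open upward and those of FMNL2 open downward after a common start at 0 h.

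At 0 h the arms did not differ for any formin gene at the threshold, which was also the case for 0% of all genes in the limma test. At an unadjusted p under 0.05, 1 formin gene (DIAPH2) and 801 of all genes differed at 0 h. edgeR called 0 genes and DESeq2 called 8 at 0 h, and 0 formin genes were called by either tool.

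FHOD3 (ENSG00000134775, chr18:36297713-36780220, plus strand) organises actin in the sarcomeres of heart muscle. In untreated cells its level was 32.0, 32.0 and 31.3 TPM at 0 h, 18.7, 19.3 and 18.6 TPM at 8 h, 16.6, 15.8 and 16.5 TPM at 24 h, and 16.5, 16.7 and 16.9 TPM at 48 h. In the TGFβ arm it was 31.9, 33.2 and 32.7 TPM at 0 h, 44.1, 46.1 and 48.8 TPM at 8 h, 58.7, 65.2 and 63.7 TPM at 24 h, and 58.0, 57.0 and 59.0 TPM at 48 h. The libraries of the arms overlapped at 0 h, and from 8 h on every TGFβ library lay above every untreated library.

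The FHOD3 difference was 1.40 ± 0.03 (SE) on the log2 scale at 8 h, a 2.63-fold higher level (adjusted p = 7.89e-18, limma). At 24 h it reached 1.97 ± 0.03 (3.92-fold, adjusted p = 2.02e-20, limma), and at 48 h it was 1.78 ± 0.03 (3.44-fold, adjusted p = 8.18e-20, limma). The opening of the arms came from both sides, since FHOD3 fell by 0.83 from 0 to 8 h in untreated cells and rose by 0.59 in the TGFβ arm on the log2 scale (limma adjusted p of 2.15e-13 and 9.72e-12). The change of the arm difference from 0 to 8 h, within library codes, was 1.42 ± 0.05. By its F-test p FHOD3 ranked 11 among all genes tested, and by the mean log2 difference of 1.72 it ranked 235 among genes from the most raised downward.

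The FHOD3 difference grew from 8 to 48 h by 0.38 ± 0.05 on the log2 scale (adjusted p = 3.80e-06, limma). From 24 to 48 h it fell by 0.19 ± 0.05 (adjusted p = 0.0085, limma), which passed the threshold in 7 of 24 fits that left out 1 library (adjusted p up to 0.0258) and in 4 of 11 other settings. Over the 24 libraries and 10056 genes with at least 10 TPM in some group, the profiles most like FHOD3 were those of COL4A1 (Pearson r = 0.985), a collagen of basement membranes, GALNT10 (r = 0.984), which adds the first sugar of mucin-type glycans, and DGKI (r = 0.981), a diacylglycerol kinase. These correlations describe profiles that share the same arms, times and library codes.

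FHOD1 (ENSG00000135723, chr16:67229387-67247481, minus strand) is the other FHOD formin, which bundles filaments in stress fibres and is switched on through the kinase ROCK. Untreated libraries held 61.0, 52.3 and 58.1 TPM at 0 h, 102.6, 103.3 and 96.0 TPM at 8 h, 72.7, 64.3 and 70.2 TPM at 24 h, and 84.8, 71.3 and 74.3 TPM at 48 h. Those of the TGFβ arm held 61.5, 51.4 and 62.1 TPM at 0 h, 96.2, 92.2 and 89.7 TPM at 8 h, 57.6, 45.0 and 60.3 TPM at 24 h, and 56.6, 58.3 and 53.8 TPM at 48 h. FHOD1 peaked at 8 h in both arms, where the libraries overlapped, and was lower with TGFβ in all libraries at 24 and 48 h.

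From 0 to 8 h FHOD1 rose by 0.75 on the log2 scale in each arm (limma adjusted p of 8.09e-06 untreated and 5.85e-06 with TGFβ). The arm difference was -0.02 ± 0.10 at 8 h (adjusted p = 0.901, limma), -0.31 ± 0.11 at 24 h (adjusted p = 0.0242) and -0.45 ± 0.11 at 48 h (adjusted p = 0.00181). The call at 48 h was lost without untreated replicate 1 of that time (-0.41) or without TGFβ replicate 3 (-0.41). It held in 11 of 13 other settings, the exceptions being the change from 0 h (-0.43, adjusted p = 0.0379, limma) and scaling to 3 reference genes (adjusted p = 0.441, limma). The same exceptions ended the F-test call (adjusted p of 0.0609 and 0.631), which held in 10 of 12. Taking library size from 3 reference genes (GUSB, HPRT1 and GAPDH), a setting chosen after the data were seen, turned the mean FHOD1 difference over 8, 24 and 48 h from -0.26 to 0.01. This scaling moved the median of all genes to 0.35 at 24 h and 0.38 at 48 h, from -0.02 and -0.01. Under it the FHOD1 difference at 48 h was -0.06, which lay below the all-gene median of 0.38.

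FMNL3 (ENSG00000161791, chr12:49636499-49708165, minus strand) is an effector of CDC42 that takes part in filopodia. In untreated cells it was 8.78, 8.58 and 9.10 TPM at 0 h, 9.63, 9.37 and 8.85 TPM at 8 h, 7.05, 6.47 and 6.73 TPM at 24 h, and 6.05, 5.60 and 5.99 TPM at 48 h. In the TGFβ arm it was 7.70, 8.70 and 9.15 TPM at 0 h, 14.1, 13.3 and 14.3 TPM at 8 h, 12.7, 11.4 and 12.3 TPM at 24 h, and 13.8, 14.3 and 13.7 TPM at 48 h. The libraries overlapped at 0 h only. With TGFβ the level stepped up by 8 h and stayed near it, while the untreated level drifted down.

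The FMNL3 difference was 0.61 ± 0.05 at 8 h (1.53-fold), 0.95 ± 0.05 at 24 h (1.93-fold) and 1.30 ± 0.05 at 48 h (2.47-fold) on the log2 scale, with limma adjusted p of 1.06e-09, 7.80e-13 and 3.58e-15. It thus grew by 0.69 ± 0.07 from 8 to 48 h (adjusted p = 1.08e-07, limma) and by 0.36 ± 0.07 from 24 to 48 h (adjusted p = 0.000948, limma). The change from 0 to 8 h was 0.64 ± 0.07.

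FMNL2 (ENSG00000157827, chr2:152335174-152649826, plus strand) is likewise a CDC42 effector and works at lamellipodia, filopodia and cell-cell contacts. Untreated libraries held 16.7, 19.9 and 18.4 TPM at 0 h, 16.6, 16.8 and 16.9 TPM at 8 h, 24.6, 28.4 and 25.1 TPM at 24 h, and 48.3, 49.7 and 47.4 TPM at 48 h. Libraries of the TGFβ arm held 14.7, 20.4 and 17.7 TPM at 0 h, 12.6, 11.9 and 12.7 TPM at 8 h, 17.4, 18.2 and 16.9 TPM at 24 h, and 27.9, 26.7 and 27.1 TPM at 48 h. FMNL2 climbed in both arms from 8 to 48 h, and from 8 h on each TGFβ library stayed below each untreated library.

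The FMNL2 difference was -0.40 ± 0.06 on the log2 scale at 8 h and reached -0.53 ± 0.06 by 24 h and -0.81 ± 0.06 by 48 h, with limma adjusted p of 7.09e-05, 5.78e-07 and 3.49e-10. At 48 h this is 0.571 times the untreated level. The change from 8 to 48 h was -0.41 ± 0.0878 (adjusted p = 0.00151, limma). That call was made in 8 of 11 other settings, over which the value ran from -0.44 to -0.07. The change of the FMNL2 difference from 0 to 8 h was -0.32 ± 0.09, which missed the threshold (adjusted p = 0.0208, limma). Scaled by the 3 reference genes, the difference at 8 h (-0.35) and at 24 h (-0.16) missed the threshold as well, with the raised median of all genes given for FHOD1.

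Set side by side in TPM, the FHOD3 level was 0.559 ± 0.0474 (SD, n = 3) times that of FHOD1 in untreated cells at 0 h and 0.563 ± 0.0715 times in the TGFβ arm. In the TGFβ arm it was 1.17 ± 0.238 at 24 h (1.02 to 1.45 in the libraries) and 1.03 ± 0.0599 at 48 h (0.978 to 1.10), beside means of 0.236 and 0.219 untreated. FMNL3 stood at 0.485 ± 0.0494 and 0.489 ± 0.0539 times the level of FMNL2 at 0 h, and at 0.121 ± 0.0075 untreated and 0.513 ± 0.0218 with TGFβ at 48 h. FHOD1 exceeded FHOD3 in every untreated group.

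DAAM1 (ENSG00000100592, chr14:59188646-59371405, plus strand) links Dishevelled in noncanonical Wnt signalling to RhoA. Its untreated libraries rose from 12.2, 16.2 and 13.3 TPM at 0 h to 19.7, 18.04 and 19.7 TPM at 8 h, 25.8, 32.9 and 31.6 TPM at 24 h, and 36.1, 35.3 and 36.6 TPM at 48 h. The TGFβ arm rose from 12.4, 16.6 and 14.1 TPM at 0 h to 23.6, 22.7 and 28.7 TPM at 8 h, 34.4, 45.2 and 35.1 TPM at 24 h, and 35.0, 37.4 and 42.3 TPM at 48 h. The arms were apart at 8 and 24 h and overlapped at 0 and 48 h.

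The DAAM1 difference was 0.33 ± 0.08 at 8 h (adjusted p = 0.00479, limma), 0.28 ± 0.08 at 24 h (adjusted p = 0.00728) and 0.08 ± 0.08 at 48 h (adjusted p = 0.477). The call at 8 h was lost without untreated replicate 1, 2 or 3 of that time (0.31, 0.33 and 0.34) or TGFβ replicate 2 or 3 (0.33 and 0.28), and that at 24 h without untreated replicate 1 or 3 (0.23 and 0.28) or TGFβ replicate 2 or 3 (0.18 and 0.28). Over 13 other settings the call was made in 7 at 8 h and in 4 at 24 h, and as a change from 0 h the adjusted p was 0.107 and 0.119 (limma). The F-test called DAAM1 in 8 of 12 other settings. It did not pass as a change from 0 h (adjusted p = 0.106, limma), with library totals (0.0296), or as log2(TPM + 1) (0.0179) or log2(TPM + 0.1) (0.0181).

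DIAPH3 (ENSG00000139734, chr13:59665583-60163928, minus strand) is needed for the contractile ring in cytokinesis and for filopodia. In untreated cells it fell from 22.5, 26.2 and 21.8 TPM at 0 h to 14.3, 14.8 and 15.6 TPM at 8 h, 11.6, 13.5 and 12.0 TPM at 24 h, and 5.44, 4.87 and 5.62 TPM at 48 h. In the TGFβ arm it fell from 20.6, 29.0 and 23.3 TPM at 0 h to 14.2, 13.4 and 14.1 TPM at 8 h, 14.8, 17.5 and 14.2 TPM at 24 h, and 6.10, 6.67 and 7.15 TPM at 48 h. In TPM the TGFβ libraries lay below the untreated ones at 8 h and above them at 24 and 48 h, and DIAPH3 lost more over 48 h than any other of the 10 genes in both arms. The summed level of 10 proliferation genes also fell over time, from a mean of 1157 TPM at 0 h to 254.7 TPM at 48 h in untreated cells and from 1163 to 302.6 TPM in the TGFβ arm. Between the arms it did not follow DIAPH3 at 24 h, where the sum was 741.4 TPM untreated and 603.7 TPM with TGFβ while DIAPH3 was higher with TGFβ. At 8 h the sums were 831.7 and 701.4 TPM. The part of the sum in the DIAPH3 values was not tested.

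The DIAPH3 difference between the arms was -0.05 ± 0.08 at 8 h (adjusted p = 0.723, limma), 0.35 ± 0.08 at 24 h (adjusted p = 0.00196) and 0.31 ± 0.10 at 48 h (adjusted p = 0.0139). The call at 24 h was lost without TGFβ replicate 2 (0.28) or untreated replicate 1 (0.31) of that time. It was made in 8 of 13 other settings and missed as a change from 0 h (adjusted p = 0.0768, limma), with the libraries of that time alone (0.0119), with library totals (0.0228), and as log2(TPM + 1) (0.0267) or log2(TPM + 0.1) (0.0257). The F-test called DIAPH3 in 8 of 12 other settings and missed it as a change from 0 h (0.0226), with library totals (0.0144) and as log2(TPM + 1) (0.0156) or log2(TPM + 0.1) (0.0114).

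**Figure D2:**
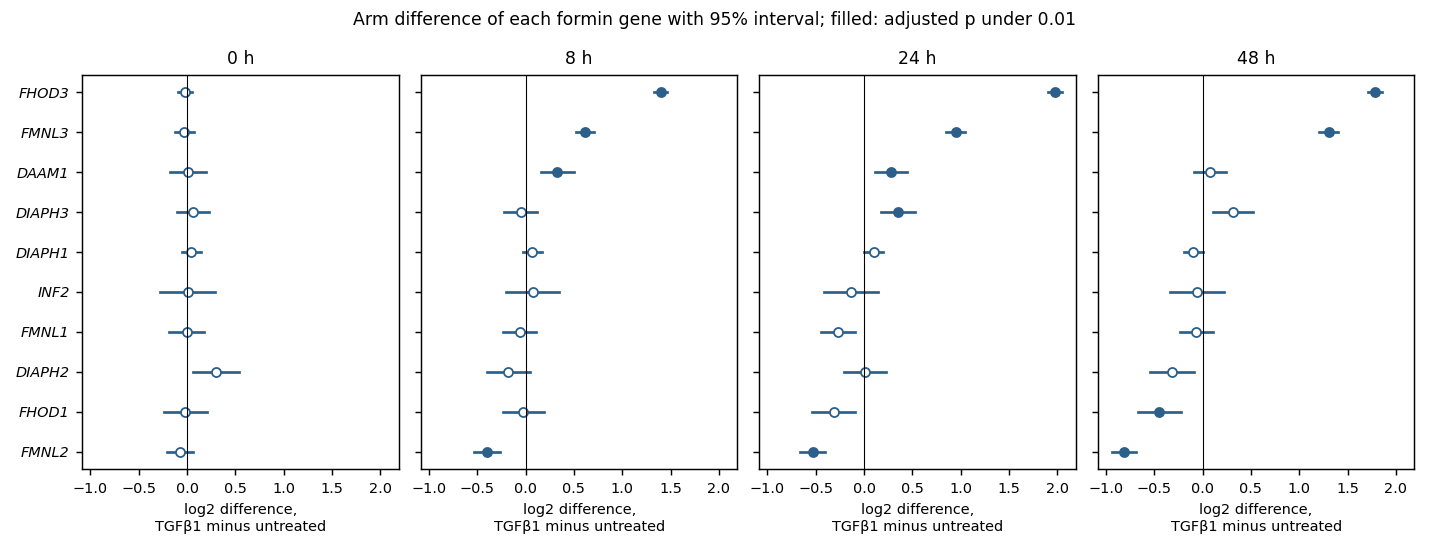
Log2 difference between TGFβ1 and untreated cells (horizontal axis) for the 10 formin genes (rows, ordered by mean difference) at 0, 8, 24 and 48 h (panels); points are limma estimates, lines their 95% intervals, and filled points have an adjusted p under 0.01. No point is filled at 0 h, and FHOD3 lies farthest to the right at 8, 24 and 48 h.

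Counted by time point, 3 formin genes were higher at 8 h (FHOD3, FMNL3 and DAAM1; 9.12% of all genes were higher) and 1 was lower (FMNL2; 7.26% of all genes). At 24 h 4 were higher, now with DIAPH3 (15.4% of all genes), and FMNL2 was again the 1 lower member (13.8%). The 24 h count fell from 5 to 3 without untreated replicate 1 or TGFβ replicate 2 of that time. At 48 h 2 were higher, FHOD3 and FMNL3 (16.1% of all genes), and 2 were lower, FMNL2 and FHOD1 (16.4%). At 8, 24 and 48 h the median log2 differences of the 10 members were 0.02, 0.06 and -0.06, beside -0.02, -0.02 and -0.01 over all genes.

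The arm difference changed from 0 to 8 h for 2 members (FHOD3 and FMNL3; 7.88% of all genes). This count was 4 without TGFβ replicate 1 at 0 h. From 0 to 48 h it changed for 4 members, with FHOD3 (1.80) and FMNL3 (1.33) higher and FMNL2 (-0.73) and DIAPH2 (-0.61) lower, beside 20.7% of all genes. It changed from 24 to 48 h for 2 members (FHOD3 and FMNL3, in opposite directions; 9.11% of all genes) and from 8 to 48 h for 3 (FHOD3, FMNL3 and FMNL2; 14% of all genes).

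The 4 members that did not pass the overall test differ widely in level. INF2 (ENSG00000203485, chr14:104681146-104722535), which acts in fission of mitochondria and also severs filaments, was the most abundant formin, with a lowest library of 69.9, a mean of 103 and a highest library of 120.2 TPM. Its mean difference over 8, 24 and 48 h was -0.04 ± 0.08 (F-test adjusted p = 0.737, limma), and the arms overlapped at each time point. With library size from the 3 reference genes this mean turned to 0.23, against a median of all genes raised as given for FHOD1. That was the 1 of 12 other settings in which the F-test called INF2. FMNL1 (ENSG00000184922, chr17:45221444-45247319), best known from macrophages and other blood cells, ranged from 42.9 to 89.9 TPM.

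FMNL1 had a mean difference of -0.13 ± 0.05 (F-test adjusted p = 0.0524, limma), and at 24 h it was -0.27 with a 95% interval of -0.44 to -0.09 (adjusted p = 0.0154). On the TPM scale the FMNL1 libraries of the TGFβ arm lay below the untreated ones at 8, 24 and 48 h, and the F-test on log2(TPM + 1) called it (-0.21). In all, the F-test called FMNL1 in 5 of 12 other settings, among them the scaling to 3 reference genes, where the sign turned. It was called in 0 of 24 fits that left out 1 library. The 24 h difference of FMNL1 was called in 7 of 13 other settings and in 3 of these 24 fits. Scaled by the 3 reference genes, its mean difference turned to 0.14, against a median of all genes raised as given for FHOD1. Of the 6 blood cell markers CD3E was listed at 0 TPM in every group, and the summed level of the 6 at 48 h was 11.6 to 11.9 TPM untreated and 6.29 to 6.98 TPM with TGFβ; its part in the FMNL1 values was not tested. DIAPH1 (ENSG00000131504, chr5:141515016-141619055), the RhoA effector of stress fibres, was the steadiest member and held between 35.5 and 50.4 TPM.

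DIAPH1 differed between the arms by 0.02 ± 0.03 on average (F-test adjusted p = 0.0638, limma), with intervals of -0.03 to 0.17 at 8 h and -0.20 to 0.01 at 48 h. DIAPH2 (ENSG00000147202, chrX:96684712-97604997), whose protein binds at kinetochores and endosomes, was the least abundant at 1.53 to 2.84 TPM. Its difference began at 0.30 ± 0.11 before exposure. It was -0.18 ± 0.11 after 8 h, 0.01 ± 0.11 after 24 h and -0.32 ± 0.11 after 48 h, with no call. Without TGFβ replicate 1 or 2 at 0 h its 48 h difference passed the threshold (-0.32 in both). It also passed with library totals (-0.40, adjusted p = 0.00664, limma) and with the 48 h libraries alone (-0.31, adjusted p = 0.00225, limma). The change of the DIAPH2 difference from 0 to 48 h, which sets libraries of different codes against each other, was -0.61 ± 0.159 and passed (adjusted p = 0.00518, limma).

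TPM values are corrected for transcript length and so allow an order of levels. Averaged over all 24 libraries it ran INF2 (103 TPM), FHOD1 (70.7), FMNL1 (66.9), DIAPH1 (40.9), FHOD3 (35.4), DAAM1 (26.9), FMNL2 (23.0), DIAPH3 (14.5), FMNL3 (9.91) and DIAPH2 (2.20). INF2 stood above FHOD1 and FMNL3 above DIAPH2 without overlap of libraries in all 8 groups. FHOD1 and FMNL1 overlapped in 3 groups and changed places in 1, and FHOD3 lay above DIAPH1 in 3 groups and below it in 5. The order pools groups with different levels, and single groups broke it without overlap of libraries for FHOD3 and DAAM1 (2 of the 8 groups), DAAM1 and FMNL2 (2), FMNL2 and DIAPH3 (3), and DIAPH3 and FMNL3 (1).

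The summed TPM of the 10 genes was 336.9 ± 8.38 (SD, n = 3) untreated and 337.3 ± 15.7 with TGFβ at 0 h, 414.7 ± 7.67 and 432.2 ± 7.63 at 8 h, 384.2 ± 10.9 and 397.5 ± 17.7 at 24 h, and 426.3 ± 18.2 and 422.2 ± 6.12 at 48 h. FHOD3 made up 9.44% ± 0.26 of this sum in untreated cells at 0 h, and at 48 h 3.93% ± 0.208 untreated and 13.7% ± 0.41 with TGFβ. FMNL2 made up 11.4% ± 0.6 untreated and 6.45% ± 0.145 with TGFβ at 48 h.

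**Figure D3:**
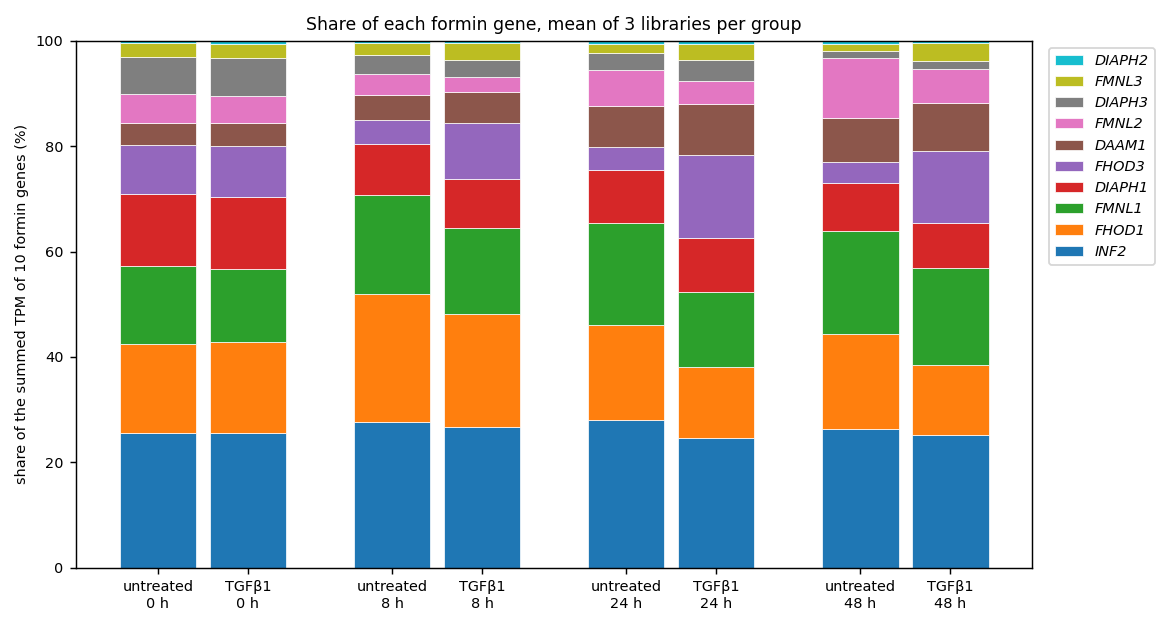
Share of each formin gene in the summed TPM of the 10 genes (stacked bars, in percent), as the mean of 3 libraries for the untreated and TGFβ1 groups at 0, 8, 24 and 48 h. The 2 bars at 0 h are alike, and at 24 and 48 h the FHOD3 segment is wider and the FMNL2 and FHOD1 segments are narrower with TGFβ1.

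Formin levels moved with time in both arms, also without TGFβ. From 0 to 8 h, 7 of the 10 changed in untreated cells (4 up and 3 down; 25.9% of all genes changed), and 9 changed in the TGFβ arm (6 up and 3 down; 34.1%). FHOD1, FMNL1, INF2 and DAAM1 rose and DIAPH1 and DIAPH3 fell in both arms over these hours. FHOD3 was the member that fell without and rose with TGFβ, while FMNL3 rose by 0.67 and FMNL2 fell by 0.50 in the TGFβ arm, with changes of 0.03 and -0.18 untreated that did not pass. The calls of DIAPH1 and INF2 were lost in some fits that left out 1 library. This held for DIAPH1 without untreated replicate 2 at 0 h (-0.17) and, in the TGFβ arm, without replicate 2 or 3 at 0 h (-0.13 and -0.18) or 1 or 3 at 8 h (-0.18 and -0.19), and INF2 in the TGFβ arm without replicate 2 at 0 h (0.35) or 1 or 2 at 8 h (0.52 and 0.52).

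The untreated INF2 rise of 0.47 from 0 to 8 h had an adjusted p of 0.00833 (limma), and leaving out any 1 of 14 libraries, most of them from other groups, lost the call (0.38 to 0.48, adjusted p up to 0.0568). From 24 to 48 h, 3 members changed in untreated cells (FMNL2 up, DIAPH3 and FMNL3 down; 28.4% of all genes changed) and 5 in the TGFβ arm (FMNL2 and FMNL1 up, DIAPH3, DIAPH1 and FHOD3 down; 26.1%). FMNL2 rose by 0.86 untreated and 0.58 with TGFβ, and DIAPH3 fell by 1.25 and 1.29 on the log2 scale. FHOD3 in the TGFβ arm fell by 0.17, DIAPH1 there fell by 0.22 and FMNL3 in untreated cells fell by 0.20. Under scaling by the 3 reference genes these turned to 0.34, 0.29 and 0.29, below the all-gene medians of 0.51 with TGFβ and 0.49 untreated that this scaling gave. The smaller changes of FMNL3 (fell by 0.20, and by 0.17 to 0.20 where the call was lost without untreated replicate 1 or 3 at 24 h or 2 or 3 at 48 h) and FMNL1 (0.31, and 0.22 to 0.32 without TGFβ replicate 2 or 3 at 24 h or 1 or 2 at 48 h) depended on single libraries.

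Transcripts of the same gene could differ in their response, which the choice of members did not use. Of 85 transcripts of the 10 genes, 28 reached a share of 10% of their gene, in TPM, in some group. Their shares were compared between the arms over 8, 24 and 48 h with an exact two-sided permutation test of 8000 relabellings within time points, for which 0.00025 is the smallest possible p. After Benjamini-Hochberg adjustment over the 28, 1 transcript passed 0.01, and 5 had an unadjusted p under 0.05.

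FHOD3 RNA was spread over FHOD3-201, FHOD3-202, FHOD3-209 and FHOD3-208. At 0 h FHOD3-201 held 48.5% of the TPM untreated and 42.2% in the TGFβ arm. At 8 h its share was 48.3% untreated (45.1% to 51.8% in the libraries) and 54.0% with TGFβ (52.6% to 56.0%), and at 24 and 48 h the libraries overlapped. FHOD3-206, the transcript that GENCODE marks as canonical, had a mean of 0.329 TPM over the 24 libraries and at most 2.21% of the gene's TPM. The share of FHOD3-201 differed by 1.49 percentage points between the arms (adjusted p = 0.755, exact permutation), and those of FHOD3-202 and FHOD3-209 by 0.34 and -0.94, while the level of the gene changed several-fold. FHOD3-209 starts inside the gene, at position 36594786 of chromosome 18, and held 18.2% of the gene's TPM untreated and 17.6% with TGFβ at 24 h.

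FMNL3 was carried by FMNL3-205, FMNL3-202 and FMNL3-201, and the largest arm difference among their shares was 1.51 percentage points (adjusted p = 0.311, exact permutation). At 48 h the libraries were apart for FMNL3-201, with 23.2% to 24.65% untreated and 25.9% to 27.3% with TGFβ. They were also apart then for FMNL3-202, with 30.3% to 33.5% untreated and 26.6% to 29.4% with TGFβ. FMNL2-201 alone held 83.4% to 92.7% of FMNL2 across groups. DIAPH1-201 held 77.3% to 82.9% of DIAPH1, and FHOD1-201 68.5% to 74.7% of FHOD1. For FMNL2, DIAPH1 and FHOD1 most of the TPM fell to 1 transcript in both arms.

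The transcript that passed was DAAM1-203, a short annotated transcript with a retained intron. Its share of the DAAM1 TPM was 1.61%, 4.33% and 9.11% in untreated cells and 15.2%, 16.0% and 14.5% in the TGFβ arm at 8 h, and 7.81%, 7.17% and 9.31% against 15.4%, 16.6% and 19.3% at 48 h. The mean difference over 8, 24 and 48 h was 8.70 percentage points (adjusted p = 0.007, exact permutation). At 0 h, before any exposure, the libraries already stood at 14.2%, 8.89% and 6.07% untreated and 19.0%, 17.5% and 12.6% in the TGFβ arm, a difference of 6.63 points with overlapping libraries. The call was lost, by adjusted p up to 0.014, without untreated replicate 1, 2 or 3 at 24 h (8.30, 8.97 and 8.84 points) or without TGFβ replicate 1 at 8 h (8.70 points).

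DAAM1-201, the canonical transcript, had a lower share with TGFβ by 5.99 percentage points (adjusted p = 0.035, exact permutation), and by 6.29 points at 0 h. Because the DAAM1 TPM sums over short transcripts, its gene level depends partly on these shares. DAAM1-206, without a defined coding sequence, held a mean of 20.8% of the DAAM1 TPM over the 24 libraries. FMNL1-209, also without one, held 35.9% of the FMNL1 TPM, beside 20.7% for the canonical FMNL1-201. INF2-201, annotated for nonsense-mediated decay, held 19.7% of the INF2 TPM, beside 49.7% for the canonical INF2-203. DIAPH3-202 had a share higher by 6.90 points with TGFβ (adjusted p = 0.077, exact permutation), and 0.76 points at 0 h.

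**Figure D4:**
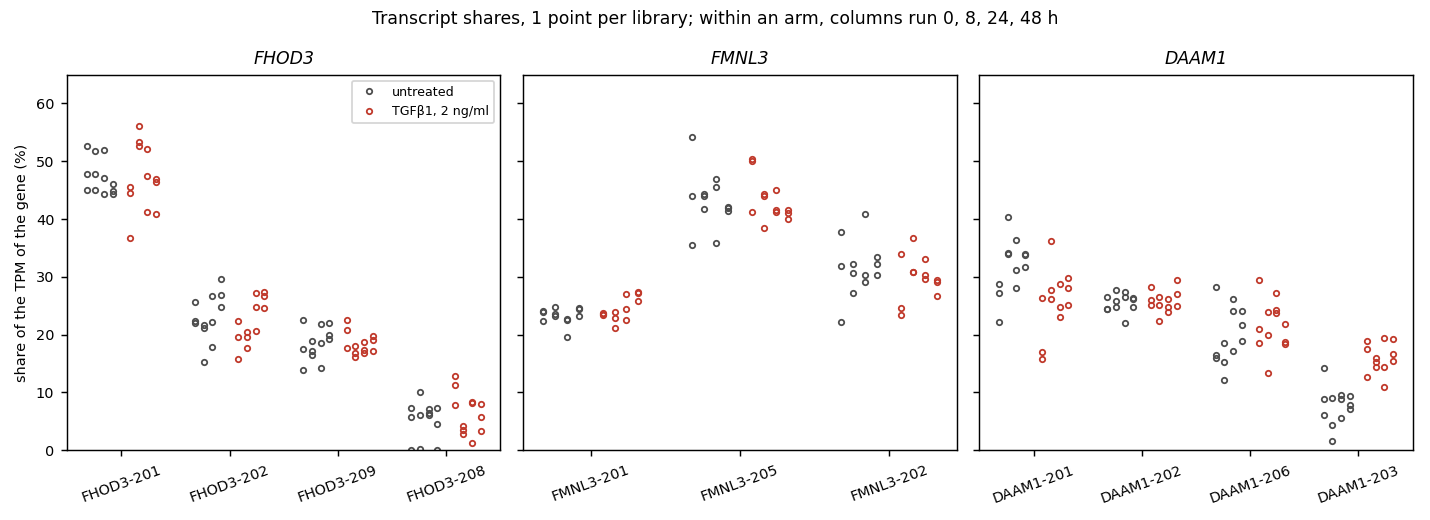
Share of each main transcript in the TPM of its gene (vertical axis, %) for FHOD3, FMNL3 and DAAM1; each circle is 1 library, grey untreated and red TGFβ1, with the columns of each arm running from 0 to 48 h. The arms overlap for the FHOD3 and FMNL3 transcripts at most time points. The exceptions are FHOD3-201 at 8 h, FHOD3-208 at 0 h, and FMNL3-201 and FMNL3-202 at 48 h. DAAM1-203 has a higher mean in the TGFβ arm at 0 h as well as later.

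The other formin genes, which were not on the list, were expressed at low levels. Of DAAM2, FMN1, FMN2, FHDC1 and GRID2IP, 4 passed the overall test (42.5% of all genes passed), and all 4 were lower with TGFβ. FMN1 did not pass it (adjusted p = 0.0272, limma), and at 48 h it was higher with TGFβ by 0.37 ± 0.104 (adjusted p = 0.00662, limma). FHDC1, a formin tied to microtubules and the Golgi, had 7.55 TPM in untreated cells and 1.64 TPM with TGFβ at 48 h, and a mean log2 difference of -1.48 ± 0.09. Before exposure, at 0 h, FHDC1 had 2.07 TPM untreated and 1.47 TPM in the TGFβ arm. That difference of -0.49 ± 0.18 did not pass the test. GRID2IP (-1.23 ± 0.19) and DAAM2 (-1.15 ± 0.22) were at or below 0.272 TPM in every group. DAAM2 already stood at -0.93 at 0 h, without passing the test, and its TPM, untreated against TGFβ, was 0.129 and 0.154 at 8 h, 0.203 and 0.0351 at 24 h, and 0.164 and 0.119 at 48 h, so it was lower with TGFβ at 24 and 48 h on that scale too.

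Profilins hand actin to formins, and capping proteins and Ena/VASP proteins compete for or share the growing end. Of 9 such genes, 5 were higher and 0 lower by the F-test, which 42.5% of all genes passed, with a median of 0.19 beside -0.02 over all genes. ENAH, an Ena/VASP protein of filopodia, rose with a mean difference of 1.52 ± 0.04, from 136.3 TPM untreated to 510.7 TPM with TGFβ at 48 h. EVL (0.51 ± 0.04), VASP (0.40 ± 0.03), PFN4 (0.36 ± 0.08) and CAPZB (0.14 ± 0.02) were the others, while PFN1 (0.19 ± 0.06) and PFN2 (-0.04 ± 0.03) did not pass.

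The Arp2/3 complex and other nucleators make branched filaments or start filaments by other means. Of 20 genes, 3 were higher and 2 lower, and 15 did not pass, against 42.5% of all genes that did, and the median of the 20 was -0.02, as over all genes. Among those that passed, the largest mean differences over 8, 24 and 48 h were those of ARPC1A (0.26 ± 0.03) and ARPC5 (0.205 ± 0.0278), both subunits of the complex. LMOD1, a leiomodin that starts filaments in smooth muscle, passed with a mean of -0.07 and opposite signs at 24 and 48 h. Its difference was -0.52 ± 0.139 at 24 h (adjusted p = 0.00485, limma; 0.988 TPM untreated and 0.675 TPM with TGFβ) and 0.61 ± 0.166 at 48 h (adjusted p = 0.00479, limma; 0.466 and 0.703 TPM).

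Among 13 regulators and partners of formins, 7 were higher and 2 lower by the F-test (42.5% of all genes passed), with a median of 0.15 beside -0.02 over all genes. MAL2, a membrane protein whose transport in epithelial cells uses INF2, fell from 59.0 TPM untreated to 9.27 TPM with TGFβ at 48 h, with a mean difference of -1.63 ± 0.05. MRTFA, the SRF coactivator that is released when formins use up free actin, rose with a mean difference of 0.95 ± 0.06, and SRF by 0.22 ± 0.04. BAIAP2, which couples CDC42 to filopodia, was lower at -0.44 ± 0.07.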

How the data were processed

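RNA-Seq was measured in 24 libraries of SK-MES1 cells, 3 per arm and time point. Per the labels and methods, the authors quantified reads with kallisto 0.43.0 against Ensembl release 79 transcripts of GRCh38; strandedness is not given in the sources used here, so reads of overlapping antisense genes may be shared. The deposited estimated counts are not normalized, and the deposited TPM values are scaled by effective length and to one total per library. The deposited effective lengths served only for length-scaled counts.

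Transcripts were assigned to genes with GENCODE release 44, which matched 155518 of 173259 transcripts (94.8% to 95.2% of counts). Transcript counts were added up for each gene, then rounded. Genes with at least 10 counts in at least 3 libraries were tested with limma 3.58.1 (voom, TMM factors, 1 mean per group) in R 4.3.3, with Benjamini-Hochberg adjustment. Differences are log2 with SE, and fold is 2 to that power. edgeR 4.0.16, DESeq2 1.42.0 and further settings were alternatives. 1 planned scaling to reference genes and 1 gene list are not reported here; scaling to 3 reference genes was added after the data were seen. Scripts were tested on simulated data. Replicate numbers come from the labels. Libraries with the same number in both arms correlated between -0.06 and 0.248, and over 0.1 in 4 of 12 pairs, and no pairing was used. At 0 and 24 h these pairs ran from 0.064 to 0.248, and pairs with different numbers from -0.186 to 0.082. A shared replicate effect at these times was not tested, and a fit with a replicate block is given below. All formin members are named; of the other lists, genes past the F-test with a mean difference of at least 1, or the 2 largest, are named by rule, and further genes of these lists were named after their values were seen. Members and lists were chosen with earlier results of these data known. Tables and figures were made in Python 3.11.15 with Matplotlib 3.10.9.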

Additional observations from a re-analysis of the deposited data

Results flagged for a closer look

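The arm difference of 3 formin genes was not the same at the time points compared, by limma's test of the difference between time points, and groups of 3 libraries are too small for a search for single outlying values. For FHOD3 the difference at 48 h exceeded that at 8 h by 0.3835 on the log2 scale (adjusted p = 3.80e-06, limma), and it was below that at 24 h by a change of -0.1909 (adjusted p = 0.0085, limma). For FMNL3 the difference at 48 h exceeded that at 8 h by 0.6905 (adjusted p = 1.08e-07, limma) and that at 24 h by 0.3552 (adjusted p = 0.000948, limma). For FMNL2 the change from 8 to 48 h was -0.4123 (adjusted p = 0.00151, limma). It was called in 8 of 11 other settings, with values from -0.4405 to -0.0722. Comparisons of 48 h with 8 h set libraries of different codes against each other in both arms.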

How the results depend on the processing

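Scaling to 3 reference genes, chosen after the data were seen, moved the median of all genes to 0.354 at 24 h and 0.377 at 48 h on the log2 scale, and the 8 reversals among the formin values occurred under it. They were FMNL1 at 48 h (0.3271) and on average (0.1413), INF2 at 48 h (0.3376) and on average (0.2316), FHOD1 on average (0.0101), and the changes from 24 to 48 h of FMNL3 untreated (0.2912) and of DIAPH1 (0.2874) and FHOD3 (0.3428) with TGFβ, beside medians of all genes for these changes of 0.491 untreated and 0.511 with TGFβ. The same scaling gave 2 formin genes at 8 h, 7 at 48 h, 0 for the change of the arm difference from 24 to 48 h, 10 for untreated 48 h minus 24 h and 8 for TGFβ. Taking the change from 0 h gave 3 genes in the F-test, 2 at 8 h and 3 at 24 h. Fitting only the libraries of a time point gave 3 at 24 h and 7 at 48 h. For the change from 24 to 48 h, log2(TPM + 1), library totals, upper-quartile factors, length-scaled counts and no filter each gave 1, and log2(TPM + 0.1) gave 0. Both TPM fits gave 3 for the TGFβ arm from 24 to 48 h. For causes other than the scaling, the cause was not tested.

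Leaving out 1 library gave 6 to 6 genes in the F-test, 0 to 0 before exposure (0 h), and 3 to 4, 3 to 7 and 3 to 6 at 8, 24 and 48 h. The changes of the arm difference gave 2 to 4 (0 to 8 h), 1 to 3 (24 to 48 h) and 3 to 3 (8 to 48 h). Within arms from 0 to 8 h the ranges were 5 to 8 untreated and 7 to 10 with TGFβ, from 24 to 48 h 2 to 4 and 4 to 6, and the transcript count ran from 0 to 2. Of 1704 leave-one-out values of formin genes, 1635 kept the call, 60 lost and 9 gained it. Among those that kept it, 6 changed sign without being called. Of 851 values under other settings, 753 kept, 60 lost and 30 gained the call, and 8 were the reversals named above. In all, 31 of the 851 changed sign.

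The replicate block, for numbers not shown to pair the libraries, gave 6 genes in the F-test, and 0, 4, 7 and 5 at 0, 8, 24 and 48 h. DIAPH2 at about 2 TPM was the least abundant member, with 434 to 781 estimated counts per library, and a limit from depth was not tested.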
